A study of Mus musculus with 46 samples.

Results

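The mitochondrial ribosomal proteins are the nuclear-encoded proteins of the mitoribosome, the ribosome inside mitochondria that makes the few proteins encoded by mitochondrial DNA. They are translated in the cytosol, imported, and assembled on the 2 ribosomal RNAs that mitochondrial DNA itself encodes: the small subunit on mt-Rnr1, the large subunit on mt-Rnr2. Pancreatic beta cells and hepatocytes depend on the respiratory chain, whose core subunits this ribosome makes. The genes were taken as every symbol that begins with Mrpl or Mrps and a number, without the 6 symbols that end in -ps, which mark pseudogenes. The rule gave 78 genes of the 55487 listed, 49 with Mrpl symbols (large subunit) and 29 with Mrps symbols (small subunit), on 17 chromosomes. A symbol does not always give the place of the protein: Mrps30 and Mrps18a are known to sit in the large subunit, and Mrps36 is now known as a component of the 2-oxoglutarate dehydrogenase complex. The rule also leaves out subunits with other names, such as Dap3, Ptcd3, Chchd1, Aurkaip1 and Gadd45gip1, which are given beside the members.

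RNA was sequenced from 46 mouse samples of 2 tissues, pancreatic islets cultured overnight and flash-frozen liver, labelled as biological replicates. The first experiment held islets labelled Tfam control (5 female, 3 male) and Tfam KO (4 female, 2 male). Tfam packages mitochondrial DNA and helps to start its transcription. The second held islets labelled Clec16a control or Clec16a KO, a gene of mitochondrial quality control, on diets labelled RFD (4 control, 4 KO) and HFD (6 control, 5 KO). The third held livers whose descriptions carry the letters AAV: 6 control, 4 Mfn DKO and 3 Tfam KO. Mfn1 and Mfn2 encode the mitofusins, which fuse the outer mitochondrial membrane. The labels used here name no Cre driver, strain or age, and give a sex only for the Tfam islets. Both liver KO groups are set against the same 6 controls, so their comparisons share them.

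Each library gave between 16235173 and 83342809 counts, and every tested member had at least 37 counts in every library. Of the 78 members, 77 passed the filter on low counts in each fit. Mrpl53, a large-subunit protein, did not: it had 0 counts in 33 of 46 libraries and at most 7 in the others, and 88.0% of its exonic bases also belong to other annotated genes. Levels are given as CPM on TMM-scaled library sizes unless TPM is named, and differences as log2 fold changes with a standard error (SE) from edgeR's quasi-likelihood test. A gene was called at a Benjamini-Hochberg adjusted p of 0.05 or less over all genes tested. Tfam RNA was 17.2 ± 1.11 CPM (SD, n = 6) in KO and 39.7 ± 2.26 (n = 8) in control islets, and 14.7 ± 1.42 (n = 3) in Tfam KO and 58.9 ± 4.02 (n = 6) in control livers. Mfn1 and Mfn2 lay at 20.1 ± 4.30 and 38.1 ± 5.35 CPM (n = 4) in Mfn DKO livers, against 80.8 ± 7.58 and 157 ± 28.4 in controls. Libraries labelled Clec16a KO did not show lower Clec16a RNA, which was 26.5 ± 2.74 CPM in KO and 24.3 ± 3.71 in control islets on RFD (n = 4 each). In bulk tissue, fewer cells of a type and less RNA per cell cannot be told apart.

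Many members start beside another gene. In GENCODE M21 (GRCm38), 33 of the 78 members (42.3%) had a protein-coding gene on the opposite strand that starts head to head within 1000 bases, against 2386 of 22028 protein-coding genes (10.8%). Promoter sequences of 300 bases, 250 before and 50 after each start, were found for 69 members in RefSeq (GRCm38.p6), several of them for Mrpl48, Mrps16 and Mrpl2. The 3 shown here, chosen because their facing gene can be set beside them in the results, belong to members with large changes, Mrps12 (head to head with Sars2, mitochondrial seryl-tRNA synthetase), Mrpl50 (with Zfp189, a zinc finger gene) and Mrpl49 (with Fau, which encodes a cytosolic ribosomal protein fused to a ubiquitin-like protein). All lie on the minus strand, are printed 5′ to 3′, and cover chr7:28741772-28742071, chr4:49521034-49521333 and chr19:6057706-6058005. Capitals mark the 171, 82 and 58 bases that lie between the annotated starts of the 2 facing genes.
Mrps12: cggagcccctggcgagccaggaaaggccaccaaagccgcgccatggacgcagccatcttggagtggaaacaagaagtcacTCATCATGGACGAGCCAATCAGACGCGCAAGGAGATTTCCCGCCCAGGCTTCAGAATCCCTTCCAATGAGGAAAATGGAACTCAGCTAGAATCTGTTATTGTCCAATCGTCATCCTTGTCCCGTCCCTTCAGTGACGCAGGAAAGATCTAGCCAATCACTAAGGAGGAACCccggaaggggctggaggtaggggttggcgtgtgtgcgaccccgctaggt
Mrpl50: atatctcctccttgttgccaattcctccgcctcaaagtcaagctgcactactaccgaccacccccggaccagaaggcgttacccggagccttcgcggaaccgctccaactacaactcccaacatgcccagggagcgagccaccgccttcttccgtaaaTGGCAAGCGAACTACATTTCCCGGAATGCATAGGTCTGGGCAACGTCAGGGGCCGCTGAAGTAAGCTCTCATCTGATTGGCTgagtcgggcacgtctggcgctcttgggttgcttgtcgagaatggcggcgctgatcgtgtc
Mrpl49: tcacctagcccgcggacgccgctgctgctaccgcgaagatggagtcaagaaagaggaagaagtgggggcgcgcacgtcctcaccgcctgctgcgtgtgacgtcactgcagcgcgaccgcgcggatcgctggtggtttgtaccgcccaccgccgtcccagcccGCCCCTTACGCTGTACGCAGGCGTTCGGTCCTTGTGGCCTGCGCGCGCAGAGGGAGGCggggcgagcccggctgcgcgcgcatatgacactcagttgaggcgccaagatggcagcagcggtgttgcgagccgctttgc

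A pair of motifs known from promoters of mitochondrial genes was searched on both strands, a gene counting when any of its promoters held the motif, and no member held both. The ETS motif CCGGAAG, bound by factors such as GABP, occurred for 26 of 69 members (37.7%), for 9.93% of all 27025 genes and for 16.1% of the 14097 genes tested in any experiment. In the Mrps12 promoter it begins at base 252, just inside the gene. The palindromic motif of NRF1, nuclear respiratory factor 1, occurred in 3 members, Mrpl9, Mrpl32 and Mrpl39 (4.35%), against 1.07% of all genes and 1.85% of tested genes. These are counts of letters, not of bound sites.

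In control tissue the members differed widely in level. Per length, the highest in Tfam control islets was Mrps21, a small-subunit protein, at 91.4 ± 8.59 TPM (SD, n = 8). Mrps12, the counterpart of bacterial S12 at the decoding centre, followed at 78.3 ± 18.2 TPM, and its spread overlapped that of Mrps21. Mrps23 (55.6 ± 4.58), Mrpl36 (55.2 ± 5.53) and Mrpl2 (53.8 ± 3.30) did not differ beyond their spread. At the low end lay Mrpl23 (3.69 ± 0.427), Mrps30 (3.51 ± 0.445) and Mrpl33 (3.49 ± 0.103 TPM), again within each other's spread, with Mrpl53 at 0. The length in these TPM is all annotated exonic bases of a gene, so the order depends on annotation too. That length was 739 for Mrps21 and 1040 for Mrps12, but 4883, 6666 and 7326 for Mrpl23, Mrps30 and Mrpl33. Not divided by length, Mrpl33 lay at 12.1 CPM, above Mrpl18 at 9.05 CPM, which had 13.7 TPM. The Clec16a control islets (n = 10) were led by Mrps12 at 83.2 ± 12.5 TPM and Mrpl24 at 80.8 ± 9.74, within each other's spread, followed by Mrpl10 (68.2 ± 4.54) and Mrps21 (68.1 ± 6.21), also within each other's spread.

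Control liver was led by another member. Mrpl12, the protein of the flexible stalk that recruits translation factors, lay at 217 ± 16.1 TPM (n = 6), against 24.98 ± 3.25 in Tfam control islets and 25.7 ± 2.94 in Clec16a control islets. Next came Mrps21 (134 ± 9.57), Mrpl34 (123 ± 12.8), Mrpl14 (122 ± 6.73) and Mrpl2 (121 ± 8.88 TPM), which overlapped in spread. The lowest in liver after Mrpl53 were Mrps30 (5.17 ± 0.496), Mrpl23 (5.03 ± 0.258) and Mrpl33 (4.04 ± 0.262 TPM). The 77 members lay at a median of 1.62 times their islet level when liver was set against Tfam controls and 1.66 times against Clec16a controls. For 45 of them every control liver lay above every control islet library, and for 0 below. Neither the ratios nor this count were taken over all genes, so they are not read as particular to the members. Beta-cell markers alone summed to 186400 to 292800 CPM in Tfam control islets, and their part in these ratios was not tested. The largest ratios to Tfam control islets were those of Mrpl12 (8.68), Mrpl18 (5.92) and Mrpl14 (5.36), while Mrpl36 (0.776) and Mrps23 (0.822) had lower means in liver than in both islet sets. Mrps33, at a ratio of 0.584 to Tfam controls, was at 1.20 to Clec16a controls. Tissue and experiment cannot be told apart here, so no test was made. The order of the members was similar between islets and liver (Spearman rho 0.871 over 77 members of shared libraries) and between the islet control sets (0.926). Both correlations share the annotated length by which each member's TPM is divided.

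**Figure D1:**
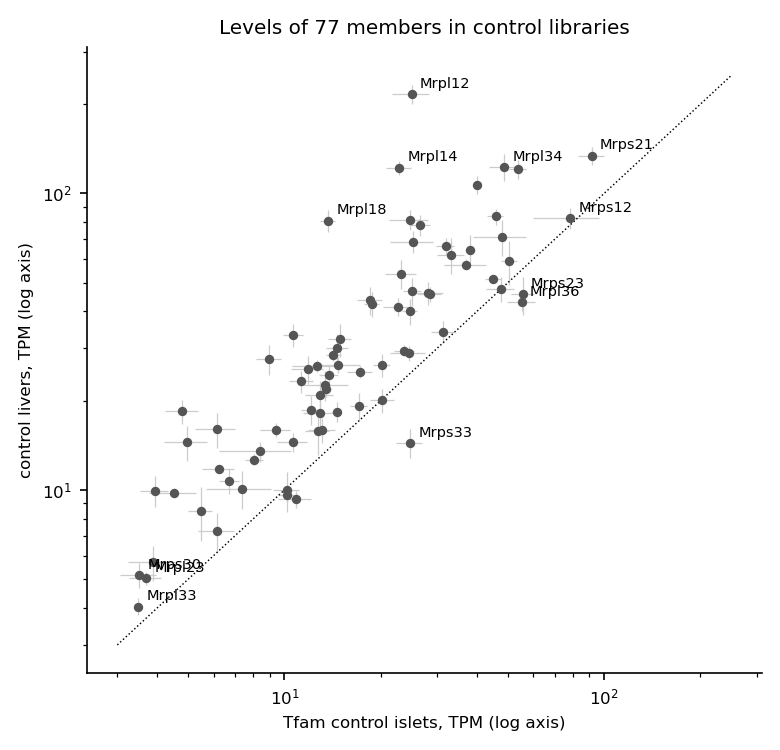
Mean level of 77 members in Tfam control islets (x axis, n = 8) and control livers (y axis, n = 6), in TPM on log axes, with SD as grey bars and a dotted line of equal level. Mrpl12, at 24.98 TPM in islets and 217 in liver, lies farthest above the line, and Mrps33, Mrps23 and Mrpl36 lie below it.

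Summed over the 78 members as CPM on TMM-scaled library sizes, transcripts of the group stayed within a narrow range in each experiment. The sum depends on the scaling, as given below. In Tfam control islets the sum ran from 1520 to 1915 CPM. The highest of these, female control 4, stood apart from the other 7, which reached at most 1693. It did so only on this scale: its TMM factor was 0.834, against 0.939 to 0.982 in the other 7. Its summed TPM, 1575, was the lowest of the 8, and its members held 0.160% of its counts, against at most 0.159% in the others. The 6 Tfam KO islet libraries lay between 1759 and 1851, above 7 of the 8 controls and below the eighth. Clec16a islet libraries spread from 1567 to 1991 CPM with no separation by label. Control livers ran from 2606 to 3230, Mfn DKO livers from 2455 to 2845, and Tfam KO livers from 2873 to 3310. Both KO ranges overlapped that of the controls, while the Mfn DKO and Tfam KO ranges did not overlap each other. Summed as deposited TPM instead, Tfam KO islets lay at 2225 to 2443 and their controls at 1575 to 1756, without overlap. Tfam KO livers then lay at 3803 to 5605 and control livers at 2901 to 3408, also without overlap, while Mfn DKO livers, at 3153 to 3678, overlapped the controls. The ratio of Mrpl to Mrps sums was 2.25 ± 0.0361 in control livers, 2.25 ± 0.0195 in Mfn DKO and 2.15 ± 0.0904 in Tfam KO livers, differences within the spread.

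**Figure D2:**
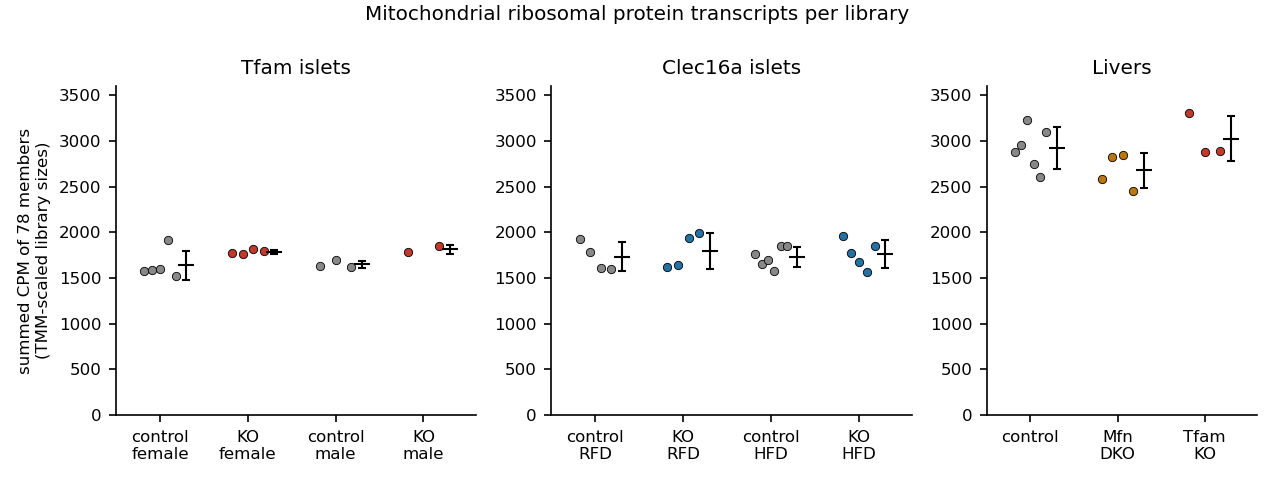
Summed CPM (TMM-scaled) of the 78 members in every library (points), by group, with mean and SD beside each group. Tfam KO islets lie between 1759 and 1851 CPM, and female control 4, at 1915, lies above all of them.

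In Tfam KO islets a part of the group was higher by small amounts. Of 77 members, 22 were called (28.6%), against 20.9% of the 19752 genes tested. Higher were 20 members, against 11.6% of genes, and lower 2, against 9.29%. The members' median log2 fold change was 0.12, with 64 positive, against -0.01 over all genes. The higher ones were 9 of 48 Mrpl and 11 of 29 Mrps members, and apart from Mrpl50 their folds lay between 1.15 and 1.33. The range of all 77 ran from -0.46 to 0.67.

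Mrpl50, a large-subunit protein with no bacterial counterpart (ENSMUSG00000044018, chr4:49512596-49521093), moved most. In females it lay at 31.8, 30.8, 31.9, 34.1 and 30.5 CPM in controls and at 45.8, 55.0, 58.3 and 50.5 in KO. In males it lay at 36.0, 34.8 and 34.1 in controls and 50.8 and 54.6 in KO. Every KO library stood above every control library in both sexes. The log2 fold change was 0.67 (SE 0.058, 1.60-fold, edgeR adjusted p = 4.85e-07).

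Mrps5, the counterpart of bacterial S5, ran from 27.9 (median 28.5) to 31.5 CPM in the 8 controls and from 31.9 (median 35.8) to 38.3 in the 6 KO libraries, with no overlap. It rose by 0.28 (SE 0.052, edgeR adjusted p = 0.000933). Mrps22, a small-subunit protein found mutated in human mitochondrial disease, ran from 7.22 (median 9.33) to 10.9 in controls and from 11.1 (median 12.2) to 13.6 in KO, and rose by 0.39 (SE 0.083, edgeR adjusted p = 0.0032). Mrps26 ran from 22.8 to 29.4 CPM in controls and from 30.0 to 34.9 in KO, and rose by 0.28 (SE 0.059, edgeR adjusted p = 0.00285). These 3 small-subunit members, Mrpl50 and Mrpl21 were the 5 members whose KO libraries all lay above all controls, as did 4.83% of all genes tested. For no member did all KO libraries lie below all controls, against 2.66% of genes. Mrpl30 rose by 0.41 (SE 0.074, edgeR adjusted p = 0.000799) and Mrpl9 by 0.26 (SE 0.057, edgeR adjusted p = 0.00381). For both, only female control 4 reached into the KO range, at 35.7 and 37.9 CPM.

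The 2 members that fell were Mrps12 and Mrpl36. Mrps12 (ENSMUSG00000045948, chr7:28739641-28741820) lay at 32.8, 34.8, 33.5, 40.5 and 31.5 CPM in female controls and at 24.3, 27.0, 26.8 and 26.5 in female KO. In males it lay at 56.0, 41.4 and 35.5 in controls and at 31.8 and 27.6 in KO. Within each sex every KO library was below every control, and across sexes 1 male KO library just exceeded the lowest female control. It fell by 0.46 on the log2 scale (SE 0.092, edgeR adjusted p = 0.00181). Mrpl36, the counterpart of a small zinc-binding bacterial protein, ran from 25.5 to 37.1 CPM in controls and from 21.02 to 27.3 in KO and fell by 0.29 (SE 0.086, edgeR adjusted p = 0.0229). Its call was lost without KO female 2 or KO male 2, and with library sizes from total counts alone (-0.08, adjusted p = 0.473).

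The RNAs on which these proteins assemble fell far more. In Tfam KO islets mt-Rnr1 lay at 35.2 ± 7.86 CPM (SD, n = 6) against 149 ± 21.2 in controls (n = 8), and mt-Rnr2 at 125 ± 30.1 against 583 ± 81.6, log2 changes of -2.08 (SE 0.13) and -2.23 (SE 0.14). All 11 tested messengers of mitochondrial DNA were called lower too, such as mt-Co1 at -2.64 (SE 0.081). Yet mt-Co2, mt-Co3, mt-Atp6 and mt-Nd3 had at most 0.518 CPM in any library, against 3516 to 4615 for mt-Co1 in controls. Their calls rest on few counts. Of the 5 subunits with other names, Chchd1 (0.43, SE 0.086) and Aurkaip1 (0.24, SE 0.072) were higher and 3 were not called, among them Dap3, the GTP-binding small-subunit protein, at 0.02 (SE 0.048). Of 27 genes of mitoribosome assembly and rRNA modification, 9 were called higher and 1 lower, led by Mpv17l2 (0.53, SE 0.11), Rpusd4, a pseudouridine synthase (0.30, SE 0.064), and the GTPase Mtg1 (0.26, SE 0.055). Of 15 genes listed for mitochondrial translation, 2 were higher, Lrpprc (0.26, SE 0.065) and the elongation factor Gfm1 (0.17, SE 0.052). Among 13 transcription regulators of mitochondrial biogenesis, 4 were higher and 1, Tfam, lower: Nrf1 rose by 1.19 (SE 0.07, edgeR adjusted p = 5.76e-09) and Myc by 1.86 (SE 0.18).

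Cytosolic ribosomal protein genes, measured for comparison, rose more often: 56 of 80 were called higher and 0 lower, with a median of 0.35. Their sum was 14810 to 26970 CPM in controls, female control 4 again highest, and 22910 to 25510 in KO. Some cell-type markers differed by genotype too. The summed level of 5 beta-cell markers was 104800 to 139800 CPM in KO and 186400 to 292800 in controls, without overlap. That of 4 lymphocyte markers was 5.94 to 8.31 against 13.5 to 21.9, also without overlap. That of 7 acinar markers was 1406 to 16460 in KO and 929 to 8983 in controls, which overlapped. Sums of alpha-cell, delta-cell, duct, macrophage, endothelial and fibroblast markers overlapped too. The part of these cells in the members' changes was not tested. With the acinar score as a covariate, the call counts were within 1.5 times those above.

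The number of calls rested on single libraries. Without female control 4, 35 members were called higher and 2 lower, with 4995 genes called in all, against 4119 with every library. Without KO female 4 they were 12 and 2 (3516 genes in all), and without KO male 2 they were 13 and 1 (3096 genes). With library sizes from total counts alone, 69 were higher and 1 lower, as the median of all genes moved to 0.20. The members' median then lay 0.14 above that of all genes, against 0.13 with TMM.

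Taken by sex, 9 members were called higher and 1 lower in females (6.67% and 4.17% of genes), and 2 higher and 1 lower in males (5.24% and 3.69%). Mrpl50 (0.72, SE 0.072, and 0.59, SE 0.097), Mrpl30 (0.37, SE 0.093, and 0.49, SE 0.13) and Mrps12 (-0.40, SE 0.11, and -0.57, SE 0.16) were called in both sexes. No member was called for a genotype-by-sex difference by edgeR, where 0.0% of all genes were, and 2 had an unadjusted p under 0.05. The female counts ran from 3 in all (without KO female 3) to 23 (without control female 4), and were 6 without control female 5, 4 without KO female 1 and 5 without KO female 4. Genes called in all in females were 1336 without KO female 3 and 2626 without control female 4. The male counts were 8 without control female 4, and 1 without control male 2, KO male 1 or KO male 2. In that order, 2541, 1013, 733 and 578 genes were called in all in males. With total counts alone the calls in males became 33 higher and 0 lower. Mrps12 was at -0.19 in females (edgeR adjusted p = 0.229) and -0.38 in males (adjusted p = 0.0864) with total counts alone, and at -0.32 in females (adjusted p = 0.0858) with the acinar score as a covariate. Mrpl30 was at 0.44 in males (edgeR adjusted p = 0.0506) with that covariate. In males Mrps12 and Mrpl30 each lost their call without any of 4 of the 5 male libraries, all but control male 3. In females Mrps12 lost it without control 2 or 4 or any KO library, and Mrpl30 without KO 1, 3 or 4.

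In Clec16a islets no member was called in either diet. On RFD, 7.52% of 17254 genes were called, 0 of 77 members, and 7 members had an unadjusted p under 0.05. On HFD, 9.58% of genes were called, 0 members, and 6 had an unadjusted p under 0.05. The members' medians were 0.06 and 0.003, against -0.002 over all genes in each. DESeq2's Wald test called 2 members lower on RFD and none on HFD. On RFD all KO libraries lay above all controls for 3 members and below for 2, against 7.74% and 7.33% of genes.

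Mrps9, a small-subunit protein, came nearest on RFD, at 16.8 ± 0.346 CPM in KO and 21.4 ± 0.844 in controls (SD, n = 4 each). Its groups did not overlap, and its log2 change was -0.35 (SE 0.11, edgeR adjusted p = 0.0557). Mrpl3, the counterpart of bacterial L3, was at 26.7 ± 2.65 against 34.2 ± 2.76 on RFD (edgeR adjusted p = 0.0766) and at 27.6 ± 4.94 against 33.7 ± 3.11 on HFD (n = 5 and 6, edgeR adjusted p = 0.0862).

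Mrps12, which fell in Tfam KO islets, was at 43.2, 43.5, 52.1 and 69.4 CPM in the RFD KO libraries and 41.1, 40.5, 35.8 and 35.4 in their controls. The groups did not overlap, yet the log2 difference of 0.45 (SE 0.19) was not called (edgeR adjusted p = 0.151). On HFD it was 64.3, 48.0, 49.0, 30.2 and 65.3 in KO and 38.7 to 51.1 (median 42.8) in controls, which overlapped. Mrpl50 spread from 26.1 to 53.5 CPM in the 5 HFD KO libraries and from 25.7 to 37.1 in the controls (log2 difference 0.33, edgeR adjusted p = 0.156). Mrps36, the dehydrogenase component, was at 3.37 ± 1.35 CPM in RFD KO and 1.94 ± 0.582 in RFD controls. It had the largest estimate on RFD, 0.80 (SE 0.35), which was not called (edgeR adjusted p = 0.179).

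On RFD no gene of the other lists was called: 2 mitochondrial rRNAs, 5 subunits with other names, 27 assembly genes, 16 genes listed for mitochondrial translation, 13 regulators and 78 cytosolic ribosomal protein genes. On HFD the subunit gene Gadd45gip1 (-0.29, SE 0.087), the RNA methyltransferase gene Trmt2b (-0.39, SE 0.11) and Ppargc1a (-1.26, SE 0.35) were called lower, Nrf1 (0.47, SE 0.13) and Rplp0 (0.37, SE 0.11) higher. Without KO HFD 4, 2 members were called higher and 2 lower on HFD, and 1 and 2 on RFD. Genes called in all then rose to 3369 on HFD and 2015 on RFD, from 1653 and 1298. Without control HFD 1 or KO HFD 3, 1 member was called lower on RFD. With the acinar score as a covariate, RFD gave 2 higher and 1 lower. The acinar marker sum was 1796 to 12020 CPM in RFD KO and 4221 to 9046 in RFD controls. Macrophage markers summed to 70.0 to 99.5 CPM in RFD KO and 115 to 151 in RFD controls, and lymphocyte markers to 5.31 to 9.03 against 11.7 to 21.1, both without overlap. Endothelial markers summed to 228 to 266 CPM in RFD KO and 135 to 158 in RFD controls, also without overlap. The part of macrophages, lymphocytes and endothelial cells was not tested.

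Between HFD and RFD, 0 of 77 members were called in control islets, where 0.0406% of genes were, and 0 in KO islets, where 0.0116% were. A single member had an unadjusted p under 0.05 in each, Mrpl42 in controls (0.29, SE 0.13) and Mrpl50 in KO islets (0.35, SE 0.16), by edgeR. The genotype-by-diet difference was called for no gene (0.0%) and no member had an unadjusted p under 0.05. Lane, read from the deposited names, split these libraries: the members' sum was 1818 ± 136 CPM in lane 7 (n = 10) and 1683 ± 113 in lane 8 (n = 9). With lane as a covariate no member was called in either genotype comparison or diet comparison.

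In Mfn DKO livers, single members moved in both directions at a share near that of all genes. In all, 8 of 77 members were called (10.4%), against 9.87% of 17024 genes. Higher were 2, against 5.23% of genes, and lower 6, against 4.64%. The median was -0.14, with 59 of 77 negative, against 0.02 over all genes. That sign depends on the scaling: with total counts alone the median was 0.05 while that of all genes rose to 0.21, so that the members lay 0.16 below all genes in both. The calls then became 4 higher and 1 lower.

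Mrpl49 (ENSMUSG00000007338, chr19:6053622-6057785), a large-subunit protein, ran from 35.7 (median 39.6) to 44.0 CPM in control livers and lay at 25.5, 24.6, 28.1 and 24.6 in Mfn DKO. The groups did not overlap, and it fell by 0.64 (SE 0.13, edgeR adjusted p = 0.0119). Mrps12 ran from 37.8 (median 39.0) to 45.5 in controls and lay at 27.0, 34.8, 28.1 and 27.3 in Mfn DKO, all below, with replicate 2 apart from the other 3. It fell by 0.46 (SE 0.10, edgeR adjusted p = 0.0176). Mrpl32, whose maturation by a mitochondrial protease is known to gate ribosome assembly, ran from 21.2 to 29.4 in controls and lay at 15.2, 18.3, 19.5 and 16.4, and fell by 0.53 (SE 0.12, edgeR adjusted p = 0.0163). Mrpl2, Mrps35 and Mrpl24 fell by 0.38, 0.38 and 0.37 (SE 0.095, 0.099 and 0.099).

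The 2 that rose were Mrpl23 and Mrpl54. Mrpl23 (ENSMUSG00000037772, chr7:142532686-142540747), the counterpart of the bacterial tunnel-exit protein L23, ran from 10.6 (median 11.4) to 12.7 CPM in controls and lay at 13.97, 17.98, 16.95 and 15.1 in Mfn DKO. It rose by 0.48 without overlap (SE 0.094, edgeR adjusted p = 0.00931). Mrpl54 (ENSMUSG00000034932, chr10:81264713-81266934), a large-subunit protein, ran from 14.4 (median 19.4) to 20.7 in controls and lay at 27.9, 31.6, 31.7 and 25.2, and rose by 0.66 (SE 0.15, edgeR adjusted p = 0.0158). All Mfn DKO libraries lay above all controls for 3 members and below for 12, against 8.95% and 10.3% of genes.

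Around the members, mt-Rnr1 fell by 0.84 (SE 0.22, edgeR adjusted p = 0.032), while mt-Rnr2 had -0.65 (SE 0.31) and was not called. Assembly genes gave 1 higher, the rRNA methyltransferase Mettl15 (1.16, SE 0.21), and 2 lower, Rpusd3 (-0.69, SE 0.16) and Mrm2 (-0.51, SE 0.14). The translation release factor Mtrf1 was lower (-0.52, SE 0.15), the coactivator gene Ppargc1a higher (0.66, SE 0.18), and none of the 5 subunits with other names was called. Cytosolic ribosomal protein genes were higher in 34 of 79, with a median of 0.48 and lower in 0. Hepatocyte markers summed to 67110 to 84020 CPM in Mfn DKO and 71680 to 116700 in controls, fibroblast and stellate markers to 269 to 320 against 199 to 274, both of which overlapped.

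Counts of calls moved with single libraries here too. They were 2 higher and 3 lower without control 2, control 6 or Mfn DKO 4, 2 and 1 without Mfn DKO 1, and 1 and 2 without Mfn DKO 3. Genes called in all then fell from 1681 to between 686 and 1053. Leaving out libraries of the other KO group, which share the estimate of the spread, gave 3 and 13 (without Tfam KO 2) and 2 and 11 (without Tfam KO 3). Genes called in all then rose to 3379 and 2904. Mrpl23 and Mrpl49 kept their calls without any single library. Mrpl54 lost its call without Mfn DKO 2 or 3, Mrps12 without Mfn DKO 1 or 3, and Mrpl32 without Mfn DKO 1. Mrpl2 lost it without 5 of the 13 libraries, Mrpl24 without 8 and Mrps35 without 9. With total counts alone Mrps12 was at -0.26 (edgeR adjusted p = 0.115), and Mrpl32, Mrpl2, Mrps35 and Mrpl24 were not called either.

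Tfam KO livers showed the largest single changes, in both directions. Of 77 members, 16 were called (20.8%), against 29.3% of genes. Higher were 10, against 18.1% of genes, and lower 6, against 11.3%. All Tfam KO libraries lay above all controls for 6 members and below for 4, against 10.7% and 10.2% of genes. The median was 0.03, equal to that of all genes. Before the values, the 3 libraries differed from each other: hepatocyte markers summed to 50600, 20630 and 83620 CPM in replicates 1, 2 and 3, against 71680 to 116700 in controls, and cytosolic ribosomal protein transcripts to 40010, 42010 and 24970, against 16140 to 18970. Macrophage markers were 257, 185 and 510 CPM, against 298 to 561. Their part in the results was not tested.

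Mrpl54 ran from 14.4 to 20.7 CPM in controls and lay at 41.1, 45.4 and 27.1 in the Tfam KO livers, all above. It rose by 1.04 (SE 0.16, edgeR adjusted p = 0.00113). Mrpl23 ran from 10.6 to 12.7 in controls and lay at 19.3, 18.2 and 17.3, a rise of 0.67 (SE 0.10, edgeR adjusted p = 0.0012) of like size in all 3. Mrps18b, one of 3 relatives of bacterial S18, ran from 11.3 to 14.7 in controls and lay at 35.7, 30.5 and 15.5, so that replicate 3 was just above the controls. It rose by 1.05 (SE 0.20, edgeR adjusted p = 0.0033).

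Mrps6, the counterpart of bacterial S6, ran from 6.23 to 8.22 CPM in controls and lay at 13.5, 21.4 and 9.25, all above (1.03, SE 0.21, edgeR adjusted p = 0.00405). It shares 19.9% of its exonic bases on the same strand with Slc5a3, a myo-inositol transporter, which rose by 1.62 (edgeR adjusted p = 0.00278), so reads of the 2 genes may not be told apart. Mrps28 ran from 20.2 to 32.2 in controls and lay at 50.6, 40.6 and 36.3 (0.70, SE 0.15, edgeR adjusted p = 0.00588). Mrpl19 ran from 15.7 to 22.8 and lay at 40.6, 42.7 and 20.5, where replicate 3 was within the controls (0.90, SE 0.20, edgeR adjusted p = 0.00604). It shares 36.0% of its exonic bases with Gcfc2 on the other strand, which rose by 0.70. Mrps18a and Mrps30, the 2 Mrps members of the large subunit, rose by 0.60 (SE 0.15) and 0.52 (SE 0.16), and replicate 3 of each lay inside its control range (Mrps18a at 35.29 within 27.5 to 35.32 CPM, Mrps30 at 15.8 within 15.3 to 18.9).

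Lower in Tfam KO livers were Mrpl49, Mrpl18, Mrps12, Mrpl14, Mrpl34 and Mrpl39. Mrpl49 lay at 24.6, 17.7 and 31.3 CPM, all below its controls, and fell by 0.71 (SE 0.15, edgeR adjusted p = 0.00486). Mrpl18, of the family that binds 5S rRNA in other ribosomes, ran from 45.6 (median 53.0) to 60.3 in controls, lay at 31.6, 19.9 and 42.9, and fell by 0.75 (SE 0.18, edgeR adjusted p = 0.0104). Mrps12 lay at 31.7, 25.7 and 32.1, all below its controls, and fell by 0.43 (SE 0.11, edgeR adjusted p = 0.0148). With total counts alone Mrps12 was at -0.02 (adjusted p = 0.918), Mrpl34 turned from -0.37 to 0.04 and Mrpl39 from -0.34 to 0.08, while the median of all genes rose to 0.46 and the calls became 55 higher and 2 lower. Relative to that median the members lay at 0.01, against -0.002 with TMM.

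**Figure D3:**
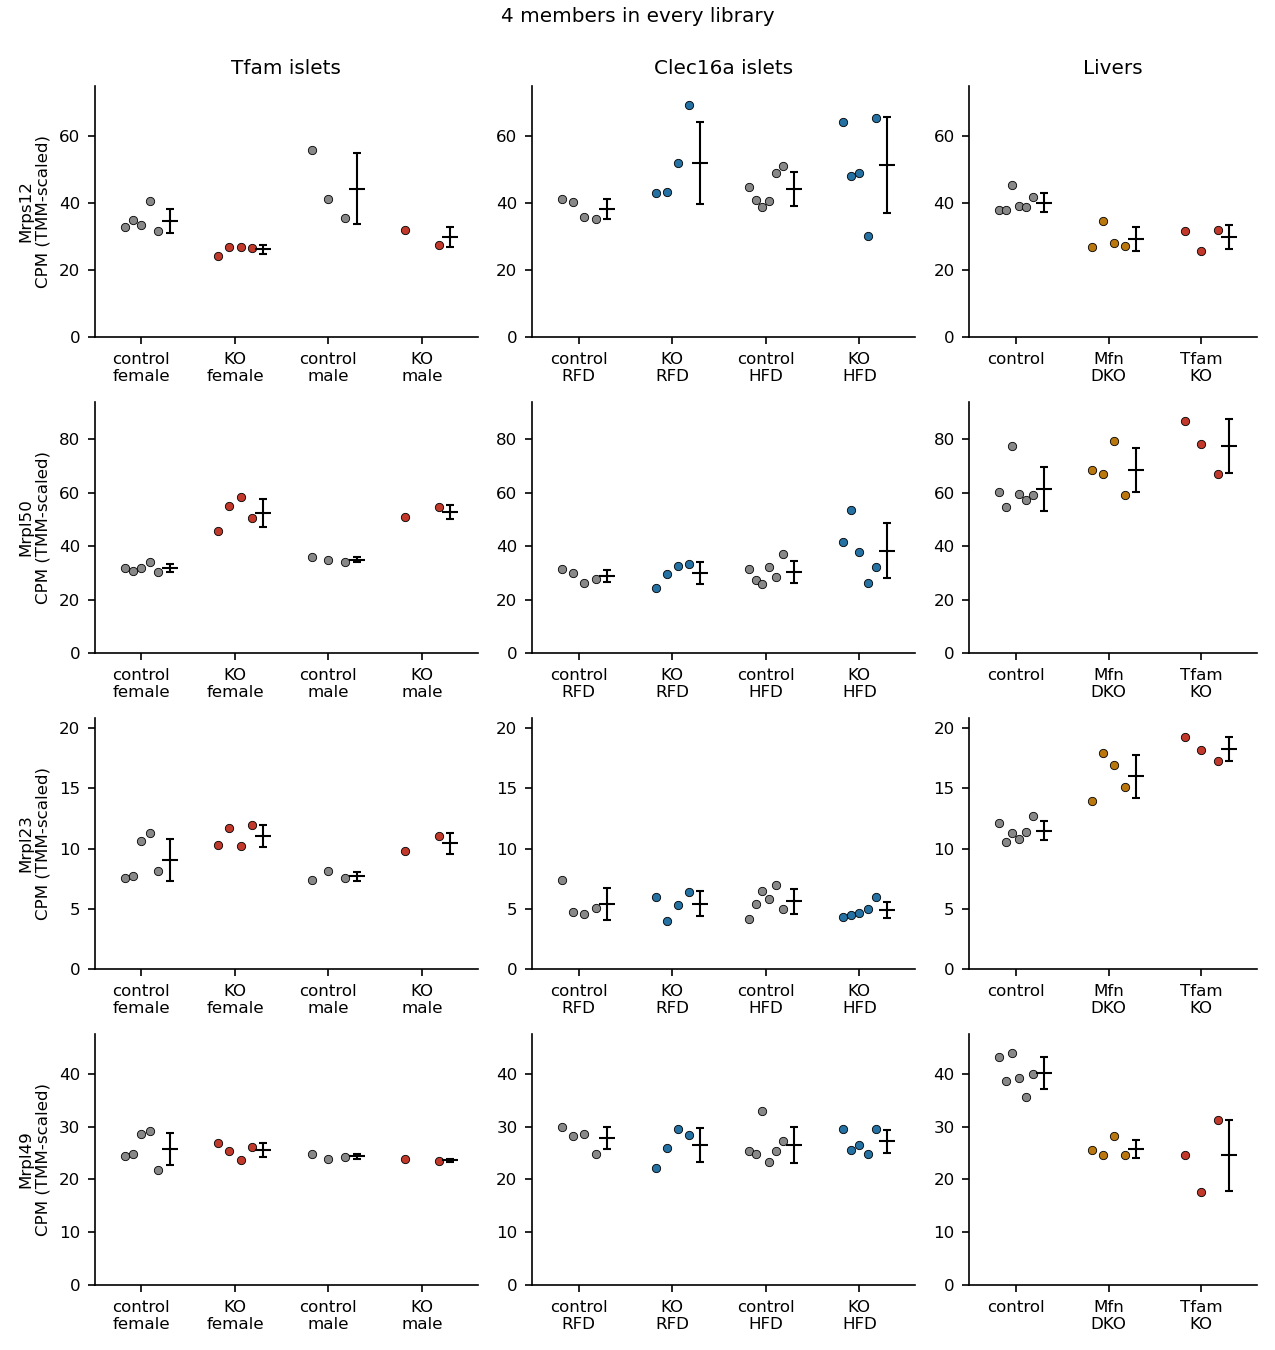
CPM (TMM-scaled) of Mrps12, Mrpl50, Mrpl23 and Mrpl49 in every library (points), with mean and SD beside each group. Mrps12 is lower in Tfam KO islets and both KO livers, Mrpl50 higher in every Tfam KO islet library, Mrpl23 higher in both KO livers, and Mrpl49 lower in both KO livers, at 17.7 to 31.3 CPM against 35.7 to 44.0 in controls.

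Both rRNAs were lower in these livers: mt-Rnr1 lay at 97.8, 74.9 and 136 CPM against 1197 to 2046 in controls, and mt-Rnr2 at 243, 173 and 556 against 1607 to 3330, log2 changes of -3.80 (SE 0.29) and -2.71 (SE 0.38). All 11 tested messengers of mitochondrial DNA were lower, but mt-Co2, mt-Co3, mt-Atp6 and mt-Nd3 had at most 1.32 CPM in any liver. For mt-Co1 the controls had 10750 to 15690 CPM. Of 27 assembly genes, 6 were higher, such as the helicase gene Ddx28 (1.55, SE 0.26) and Mettl15 (1.22, SE 0.22), and 4 lower, such as Mettl17 (-0.66, SE 0.12). Pdf, listed for mitochondrial translation, was lower but lay under 1 CPM in both groups. Cytosolic ribosomal protein genes were called higher in 75 of 79, with a median of 1.02, and lower in 0. None of the 5 subunits with other names was called, and Nrf1, at 16.7 ± 3.11 CPM against 14.6 ± 1.34, was not called (edgeR adjusted p = 0.24).

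The count changed with single libraries. Without replicate 3, 14 members were called higher and 11 lower, without replicate 1, 6 and 3. Genes called in all were then 7330 and 3340, against 4992 with every library. Mrps12 lost its call without replicate 2, and Mrpl14 and Mrpl34 without replicate 1 or 2. Mrpl39 lost its call without any of 9 libraries: replicates 1 and 2, controls 1, 2, 3 and 6, and Mfn DKO 1, 2 and 3. Mrpl54, Mrpl23, Mrps18b, Mrps6, Mrps28, Mrpl19, Mrpl49 and Mrpl18 kept theirs without each library in turn. The size of Mrps6 ran from 0.66 (without replicate 2) to 1.26 (without replicate 3), and that of Mrpl18 from -0.51 to -1.06 for the same libraries.

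Set directly against Mfn DKO livers, Tfam KO livers gave no called member, where 0.294% of genes were called. The members' median was 0.19, with 67 of 77 positive, against 0.01 over all genes, and 23 had an unadjusted p under 0.05. DESeq2's Wald test called 4 higher. Mrps16, the member with the smallest p, was at 33.6 ± 1.74 CPM (SD, n = 3) and 24.9 ± 1.51 (n = 4), without overlap (0.43, SE 0.11, edgeR adjusted p = 0.097). All Tfam KO libraries lay above all Mfn DKO libraries for 10 members (5.72% of genes) and below for none (5.1%). Without Tfam KO replicate 3, 14 members were called higher and 1 lower, but the genes called in all also rose, from 50 to 4204. Both mitochondrial rRNAs were lower in Tfam KO than in Mfn DKO livers, with log2 changes of -2.96 (SE 0.28) and -2.06 (SE 0.39).

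Side by side over the 6 comparisons of KO groups, 42 members were called in none, the untested Mrpl53 among them, 28 in 1, 6 in 2 and 2 in 3. The last 2 were Mrps12, lower in Tfam KO islets, Mfn DKO livers and Tfam KO livers (-0.46, -0.46 and -0.43), and Mrpl23, higher in the same 3 (0.34, 0.48 and 0.67). In Tfam KO islets Mrpl23 ran from 9.84 to 11.95 CPM against 7.36 to 11.3 in controls, which overlapped (edgeR adjusted p = 0.0231). The comparisons of Mfn DKO and Tfam KO livers share their 6 controls. Repeated calls were not tallied over all genes, so those of the members are not read as particular to them. Of all genes, 20.9% were called in Tfam KO islets, 9.87% in Mfn DKO livers and 29.3% in Tfam KO livers. Mrpl49, at 23.4 to 27.0 CPM in Tfam KO and 21.9 to 29.1 in control islets (-0.02), and Mrpl54 (0.12 in Tfam KO islets) were called in both KO livers and in none of the islet comparisons. Mrpl52, Mrps30, Mrps18b and Mrpl21 were called higher in Tfam KO islets and Tfam KO livers, and no member was called in opposite directions in these 2.

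**Figure D4:**
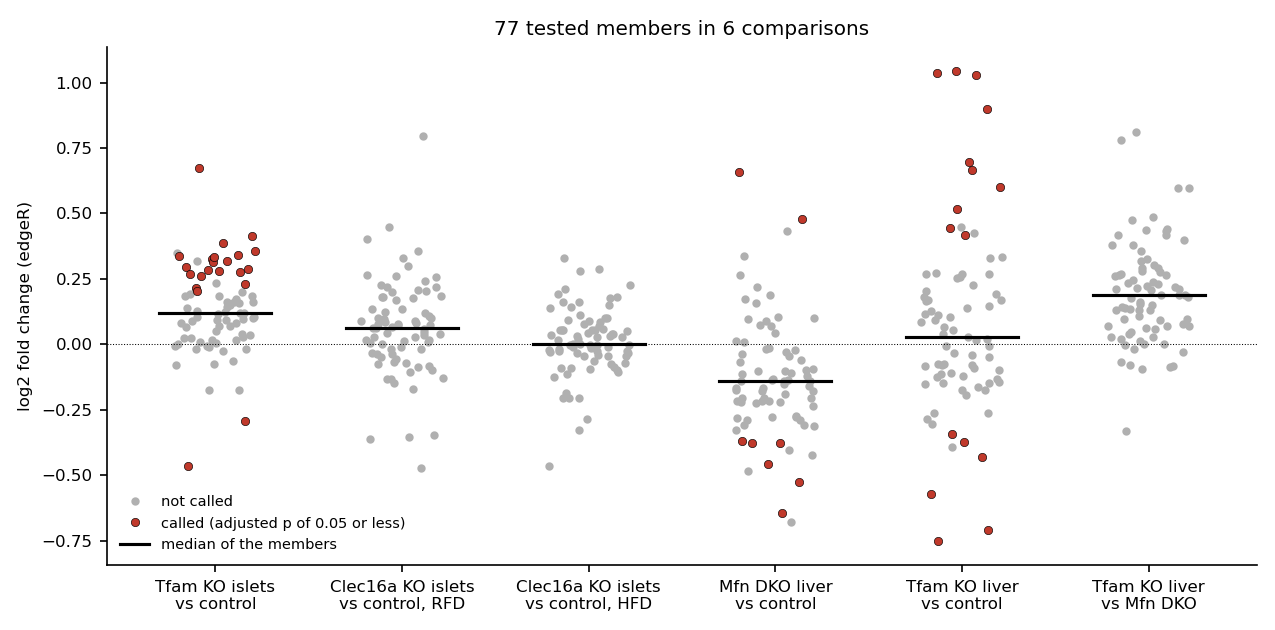
Log2 fold changes of the 77 tested members (points) in 6 comparisons, red where called, with the members' median as a bar. The medians are 0.12, 0.06, 0.003, -0.14, 0.03 and 0.19 from left to right, and red points are absent from the Clec16a columns and the direct comparison of KO livers.

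Whether the effect of Tfam KO differed between islets and liver was tested in a joint fit, since these share no controls. Of 77 members, 8 were called as more positive in islets (10.4%, against 7.68% of 21096 genes) and 4 as more negative (5.19%, against 12.5%). More positive in islets were Mrpl49, by 0.70 (SE 0.16, edgeR adjusted p = 0.0045), Mrpl39, Mrpl18, Mrpl14, Mrps5, Mrpl34, Mrpl9 and Mrpl24. More negative were Mrps6, by 1.09 (SE 0.26, edgeR adjusted p = 0.00638), Mrpl54, Mrpl19 and Mrps18b. With these 4, the islet change lay between -0.07 and 0.32 and the liver change between 0.90 and 1.05. Mrps5 and Mrpl9 were called higher in islets, with -0.10 and -0.07 in liver. Without Tfam KO liver replicate 2 the calls fell to 4 and 1, as Mrpl14, Mrpl19, Mrpl34, Mrps18b, Mrps5 and Mrps6 among others lost theirs, and without replicate 3 they were 11 and 8. Genes called in all were 1940 without replicate 2 and 6740 without replicate 3, against 4250 with every library. With total counts alone the members' calls were 3 and 11, and relative to all genes the members' median lay 0.14 above, against 0.15 with TMM. The same difference was called as more negative in islets for 58 of 80 cytosolic ribosomal protein genes, with a median of -0.67.

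**Figure D5:**
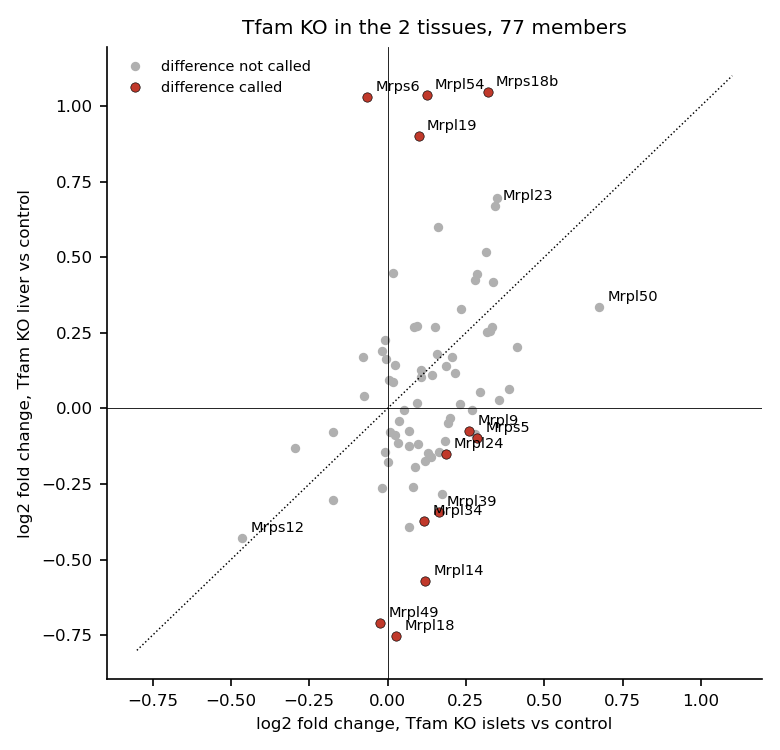
Log2 fold change of each of 77 members in Tfam KO islets (x axis) and Tfam KO livers (y axis), with a dotted line of equal change, red where the difference between the tissues was called. The 4 red points at the top (Mrps6, Mrpl54, Mrpl19, Mrps18b) lie near 1 in liver and between -0.07 and 0.32 in islets.

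Few of the genes that face members across a shared start were called together with them. Joint calls of other facing genes were not counted, so this is not read as particular to the members. In Tfam KO islets, 32 members had a facing gene that was tested too (Mrpl46 and Mrps11 face each other and count as 1 member each). Of these, 10 were called, the facing gene was called for 6 and both were for 1, where 20.9% of all genes were called. That pair was Mrpl50 and Zfp189, whose promoter is shown above: Zfp189 rose by 1.54 (SE 0.098, edgeR adjusted p = 1.32e-08), more than Mrpl50. Sars2, which faces Mrps12, had -0.19 in islets (SE 0.11, edgeR adjusted p = 0.239), -0.10 in Mfn DKO and 0.07 in Tfam KO livers, called in none. In Mfn DKO livers, where 9.87% of all genes were called, the single pair called in both was Mrpl2 with Klc4 (-0.52, SE 0.11).

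In Tfam KO livers, where 29.3% of all genes were called, 4 pairs were called in both, 3 of them in opposite directions. Fau rose by 0.46 (SE 0.11, edgeR adjusted p = 0.0109) while Mrpl49, 59 bases away, fell. Tcp1, a chaperonin subunit, rose by 0.40 (SE 0.13) while Mrpl18 fell, and Ppp1r10 fell by 1.16 (SE 0.29) while Mrps18b rose. Mrpl21 and Ighmbp2 (0.51, SE 0.16) rose together. Of the members named, Mrpl18 shares 10.1% of its exonic bases with Tcp1, Mrps18b 30.5% with Gm16279, Mrpl14 11.2% with Tmem63b and Mrpl24 26.3% with Rrnad1, all on the opposite strand. Smaller shares on the opposite strand were 9.3% of Mrps30 with B430218F22Rik, 5.8% of Mrpl21 with Ighmbp2 itself, 5.8% of Mrpl9 with Oaz3, 4.9% of Mrpl49 with Syvn1 and 2.6% of Mrpl36 with Ndufs6. Syvn1 fell by 1.03 in Tfam KO livers (edgeR adjusted p = 0.0115) and was at -0.74 in Mfn DKO livers (adjusted p = 0.0566), where Mrpl49 fell too. In Tfam KO islets Syvn1 was also called lower (-0.39, edgeR adjusted p = 0.00226), while Mrpl49 was at -0.02. Whether counting used strand is not given in the sources used here, so these values are uncertain, while Mrps12, Mrpl50, Mrpl23 and Mrpl54 share none.

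Within groups the members tended to vary together. Such correlations were not computed for other genes, so they are not read as particular to the members. After removal of group means, the median correlation between 2 members was 0.409 over 14 Tfam islet libraries, 0.466 over 19 Clec16a islet libraries and 0.465 over 13 livers, values that share libraries and depth. Closest to the mean of all members were Mrpl20 in both islet sets (r = 0.949 and 0.95) and Mrpl47 in liver (0.938). Farthest were Mrps2 (-0.188), Mrpl37 (-0.519) and, in liver, Mrps36 (-0.219).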

How the data were processed

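Per the file headers, each deposited file holds, for 1 library, raw counts per gene with TPM and CPM made by the authors. The submitters' processing notes name FastQC, STAR 2.6.1b, RSEM 1.3.1, featureCounts, MultiQC, DESeq2 and GRCm38, with no role or order. The counting annotation and the use of strand are not given in the sources used here. Gene models came from GENCODE M21 and promoters from RefSeq. The deposited TPM was used for levels between genes, and the deposited CPM was not used.

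The deposited counts were fitted in R 4.3.3 with edgeR 4.0.16 (filterByExpr, TMM, quasi-likelihood F test, Benjamini-Hochberg adjustment over all genes tested), with 1 fit per experiment and 1 joint fit for the difference between tissues, giving 13 comparisons. Sex was a term for the Tfam islets. The SE was taken as the absolute log2 fold change over the square root of F. Fits were tested on simulated data. The members and lists were chosen with earlier results of these data known. Members were named by the 6 smallest adjusted p in each direction per comparison, calls in 3 or more comparisons, the highest and lowest levels, and lost calls. Members named beyond that, such as Mrpl3, Mrpl50 and Mrps12 in Clec16a islets, were chosen after their values were seen. P-values set a difference against the spread between these samples, estimated over all groups of a fit. Depth is given with the results and limits precision for low genes. Alternatives were DESeq2 1.42.0 (size factors, Wald test), total counts, no filter, no sex term, acinar, lane or Xist covariates, only the compared groups, a replicate block and leaving out each library. Same-numbered libraries did not deviate together (median correlations 0.0653, -0.0163 and 0.0873), so the numbers were not taken as pairs. No library was left out.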

Additional observations from a re-analysis of the deposited data

Results flagged for a closer look

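In 72 combinations of a group and a value, 5 libraries lay far from the others of their group, where chance gives about 1 in 20. Of these, 3 were the same library, Tfam control female 4. Its member sum was 1915 CPM, its Mrpl54 level 26.2 CPM and its Mrpl52 level 23.5 CPM. These are on TMM-scaled library sizes, and this library had the lowest TMM factor of the Tfam controls, 0.834. Its summed TPM, 1575, was the lowest of those controls. In liver, control 3 had Mrps30 at 18.9 CPM and Mfn DKO 2 had Mrps12 at 34.8 CPM, each above the rest of its group.

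The effect of Tfam KO differed between islets and liver for 12 members in the joint edgeR fit. As the log2 effect in islets minus that in liver, it was 0.70 for Mrpl49, 0.52 for Mrpl39, 0.79 for Mrpl18, 0.70 for Mrpl14, 0.40 for Mrps5, 0.50 for Mrpl34, 0.34 for Mrpl9 and 0.35 for Mrpl24. On the same scale it was -1.09 for Mrps6, -0.90 for Mrpl54, -0.79 for Mrpl19 and -0.72 for Mrps18b. Tissue and experiment cannot be told apart in this difference.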

How the results depend on the processing

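With total counts alone, the members called and their median log2 change were 70 and 0.33 in Tfam islets, 56 and 0.34 in females, 33 and 0.33 in males, 1 and 0.13 in Clec16a HFD islets, 5 and 0.053 in Mfn DKO livers, 57 and 0.47 in Tfam KO livers, and 17 and 0.43 between the KO livers. The median difference between tissues became -0.14. Mrpl34 (0.038) and Mrpl39 (0.081) reversed in Tfam KO livers. DESeq2's Wald test called 7 members in males, 2 in Clec16a RFD islets, 14 in Mfn DKO livers, 4 between the KO livers and 20 between tissues. In Mfn DKO livers 5 were called with no filter on low counts and 21 with only the compared groups fitted. The acinar covariate gave 3 calls on RFD and a median of -0.17 for diet in KO islets. The cause was not tested. DESeq2's size factors gave 11 higher and 4 lower calls between tissues, with a median of 0.13, and 10 and 6 in Tfam KO livers, with 0.01.

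With the replicate number as a block, 4 members were called in females, 0 in Mfn DKO livers and 2 in Tfam KO livers, and Mrpl30 was at 0.33 in females (edgeR adjusted p = 0.0571). The numbers did not pair the libraries by the residual correlations.

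Leaving out each library in turn, members called ran from 14 to 37 in Tfam islets, 3 to 23 in females, 1 to 8 in males, 0 to 3 on RFD, 0 to 4 on HFD, 3 to 16 in Mfn DKO livers, 9 to 25 in Tfam KO livers, 0 to 15 between the KO livers and 5 to 19 between tissues. The number of all genes called moved with the same libraries. Mrpl53 was below what this depth can compare: 0 counts allow up to 0.185 CPM in the shallowest library.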
